A study of Homo sapiens with 48 samples.

Results

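The nuclear genes for the subunits of the mitochondrial respiratory chain and the ATP synthase were followed in the uveal melanoma lines 92-1, MEL202 and MP41 after drugs that block BAF chromatin remodelling complexes or protein kinase C. Members were the gene rows whose symbol starts with NDUFA, NDUFB, NDUFC, NDUFS, NDUFV, UQCR, SDH, COX4I, COX5, COX6, COX7, COX8 or ATP5, leaving out the NDUFAF assembly factors, antisense rows and pseudogenes. The rule found 96 of 58870 gene rows. They comprised 37 subunits of complex I, 4 subunits and 4 assembly factors of complex II, 9 subunits of complex III, 17 of complex IV (NDUFA4, long listed with complex I, among them) and 17 of complex V. The ATP synthase inhibitor ATP5IF1 made 1 further member, and COX7A2L and NDUFA4L2, relatives of complex IV subunits, made 2. The remaining 5 rows were the readthrough genes ATP5MF-PTCD1 and NDUFC2-KCTD14, the divergent transcript NDUFA6-DT, the ATP5MG relative ATP5MGL, and ATP5S, named after coupling factor B. The rule reads gene symbols alone.

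The respiratory chain sits in the inner mitochondrial membrane. Complex I (NADH dehydrogenase) and complex II (succinate dehydrogenase) pass electrons to ubiquinone, complex III passes them to cytochrome c, complex IV (cytochrome c oxidase) passes them to oxygen, and complex V (the ATP synthase) makes ATP from the proton gradient built by complexes I, III and IV. Most subunits are encoded in the nucleus and imported, a few core subunits of complexes I, III, IV and V are encoded in mitochondrial DNA, and complex II is wholly nuclear. In melanoma cells the melanocyte regulator MITF is known to raise PPARGC1A, a coactivator of nuclear respiratory genes.

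RNA was sequenced from 48 samples in 16 groups of 3. The lines 92-1, MEL202 and MP41 received FHT-1015, which blocks the BAF motor proteins SMARCA4 and SMARCA2, or DMSO as the negative control, for 4 h or 24 h. The line 92-1 also received the protein kinase C inhibitor IDE196, or DMSO in a separate set of control samples (replicates 4 to 6), for 4 h or 24 h. Every sample carries the genotype label WT and the cell type label uveal melanoma, each line is an established cell line, and the drug doses are not given in the sources used here. The labels call the samples of a group biological replicates without saying whether they came from separate cultures, so the p-values measure the spread between these samples. Levels are in CPM, read counts scaled to the library size with edgeR's TMM factors, and are given in replicate order.

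Between 11394088 and 32317711 reads per sample were counted to genes, and members took 0.524% to 1.18% of them. Of 10 melanocyte markers, 8 were at 86.2 CPM or more in every DMSO sample (SOX10 397 to 1575 CPM, PMEL 2816 to 9734 CPM). DCT was at 0.436 to 1.6 CPM in MEL202 and 1.09 to 8.18 CPM in 92-1, and S100B was at 0 to 0.678 CPM in 92-1, while the T cell gene CD3E stayed at or under 0.0616 CPM. Of the other markers of blood cells, epithelium, endothelium and fibroblasts, LUM was at 3.54 to 11.2 CPM in the MP41 DMSO samples. KRT5 was at 0.176 to 8.08 CPM in the DMSO samples of the IDE196 experiment. Elsewhere these markers stayed at or under 2.49 CPM. The spread between replicates differed between experiments: the biological coefficient of variation was 0.117 and 0.112 in the 92-1 experiments, 0.294 in MEL202 and 0.217 in MP41. For FHT-1015 at 24 h the log2 fold changes of all genes tested had a median SE of 0.14 (92-1), 0.31 (MEL202) and 0.23 (MP41). Among members with a median of at least 5 CPM over the 12 samples of an experiment, some lay more than 4-fold below that median in 3 libraries. Members under 5 CPM were not searched in this way. These were MEL202 with FHT-1015 at 4 h, replicate 2 (8 members, among them UQCRB at 28.02 CPM against a median of 232.9), MP41 with DMSO at 24 h, replicate 1 (2 members) and replicate 2 (4 members, among them UQCRB at 15.3 CPM against a median of 227.8). Counts of member calls with a drug and the members' medians in MEL202 and MP41, and the member calls described there one by one, are also given without these libraries. Counts of members whose groups do not overlap, and the other gene lists, are given with all libraries. For MP41 this leaves 1 DMSO sample at 24 h, which the fit assumes to vary like the other groups, so those values are a description of that sample against the drug samples.

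Of the 96 members, the low-count filter passed 86 for FHT-1015 in 92-1, 85 for MEL202, 85 for MP41 and 84 for IDE196. The tissue isoforms COX4I2, COX6A2, COX6B2, COX7A1, COX7B2 and COX8C passed nowhere, with 4, 35, 109, 126, 6 and 10 reads over all 48 samples. ATP5MF-PTCD1, ATP5MGL and NDUFC2-KCTD14 also passed nowhere, with 23, 83 and 1 reads. NDUFA4L2, the relative of NDUFA4, passed in MEL202 alone, and NDUFA7 passed in the 92-1 FHT-1015 experiment alone. On the scale of DMSO CPM per kilobase of the principal transcript, averaged over the 4 experiments, the highest levels belonged to ATP5F1B (579), the catalytic beta subunit of the ATP synthase, UQCRH (399.6), the hinge protein of complex III, and COX4I1 (367). The lowest among the rows passing in every experiment belonged to NDUFA9 (0.777), SDHA (1.19) and NDUFA13 (1.49). SDHA is the catalytic subunit of complex II, and pseudogene rows took 84.5% of the reads that fell on SDHA and its copies. The 3 genes that encode the same mature c subunit of the ATP synthase rotor ring stood at 161 (ATP5MC1), 116 (ATP5MC2) and 41.5 (ATP5MC3). These values depend on the transcript length chosen, 614 bases for ATP5MC1, 1950 for ATP5MC2, 5484 for ATP5MC3 and 8363 for NDUFA9. Without division by length, the DMSO median of ATP5MC3 was above that of ATP5MC1 in every experiment (255 against 137 CPM in 92-1 with FHT-1015's DMSO).

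The overall pattern was a broad fall with IDE196 at 24 h, calls in both directions with FHT-1015 in 92-1, and few calls in MEL202 and MP41. A call is an adjusted p under 0.05 from edgeR's quasi-likelihood test, adjusted over all genes tested. With IDE196 at 24 h, 54 of 84 members tested were lower and 3 were higher, while 29.4% of all genes were called lower and 28.7% higher. In 60 members every IDE196 library lay below every DMSO library, and in 4 above, where 32.3% and 32.6% of all genes did so. The median log2 fold change of the members was -0.58, against 0.03 over all genes tested. Leaving out 1 library at a time gave between 48 and 55 lower members.

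**Figure D1:**
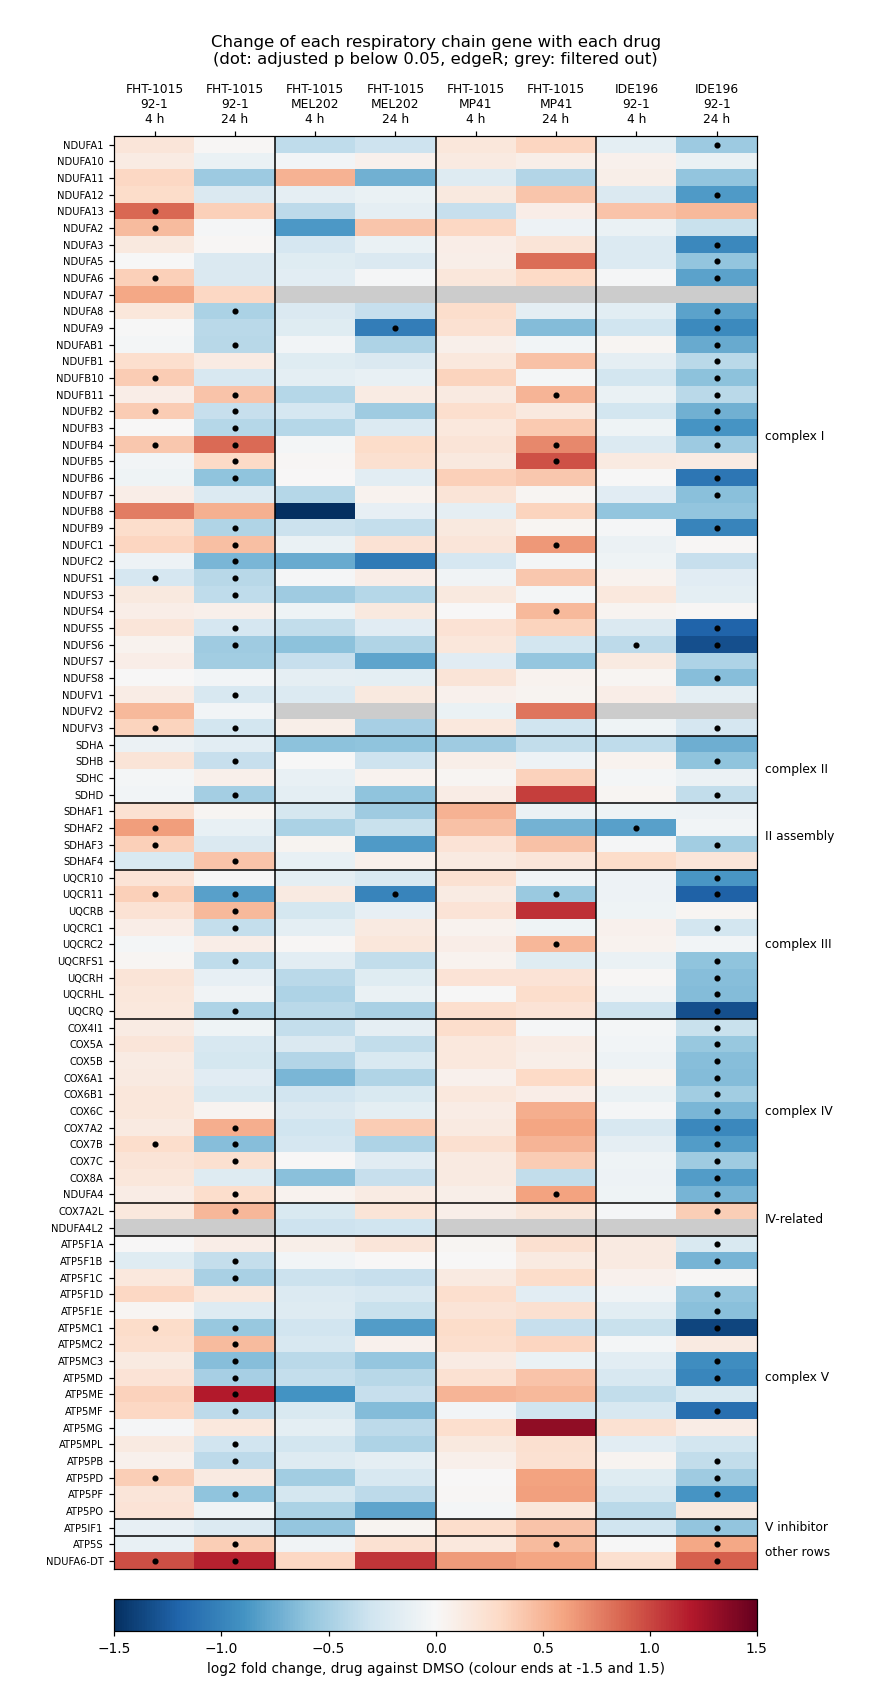
Heat map of the log2 fold change of each member (rows, grouped by complex) in each of the 8 drug comparisons (columns), with a dot where edgeR's adjusted p is under 0.05 and grey where the member was filtered out. One member is not drawn. The IDE196 24 h column holds 54 lower calls, while the MEL202 columns hold 2 dots.

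At 4 h of IDE196, 2 of 84 members were lower and none higher by the same test (9.3% and 6.89% of all genes), and 4 members had all drug libraries above DMSO and 3 below (14.8% and 15.4% of all genes). At this time 7 members had an unadjusted p under 0.05, beside 4309 of all 15437 genes tested. The median log2 fold change was -0.07, against 0.01 over all genes. NDUFS6, a zinc-binding accessory subunit of complex I (chr5:1801400-1816605, plus strand, GRCh38), stood at 71.6, 82.4 and 84.6 CPM with IDE196 and 90.97, 115 and 107 CPM with DMSO at 4 h. All 3 drug libraries lay below the DMSO libraries (log2 fold change -0.40, SE 0.11, edgeR adjusted p = 0.0207), and the call was lost in 3 of the 12 fits that left out 1 library, those without DMSO replicate 5, DMSO replicate 6 or IDE196 replicate 1, with an adjusted p of up to 0.102. SDHAF2, which attaches FAD to SDHA, was at 2.003, 1.46 and 1.86 CPM with IDE196 and 3.304, 2.795 and 3.29 CPM with DMSO. Its libraries did not overlap (log2 fold change -0.81, SE 0.23, edgeR adjusted p = 0.0196). The number of lower members was 9 without DMSO replicate 4, 0 without DMSO replicate 6, and 1 without DMSO replicate 5, IDE196 replicate 1 or IDE196 replicate 2. No member was called between the 4 h and 24 h DMSO samples of this experiment, where 0.266% of all genes were, and 5 members had an unadjusted p under 0.05, beside 2214 of all 15437 genes tested.

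The promoters of UQCR11, ATP5MC1 and NDUFS6 are shown because these genes fell far with IDE196 at 24 h and because UQCR11 also fell with FHT-1015. Each runs from 250 bases before the RefSeq transcription start to 50 bases from it, on GRCh38.p14, with capitals for the letters CACGTG (an E-box, the core that MITF and MYC bind) and CCGGAAG or its reverse complement CTTCCGG (the core of ETS factors such as GABPA). UQCR11 (chr19:1605413-1605712, minus strand) holds 1 E-box and 2 ETS cores, ATP5MC1 (chr17:48892537-48892836, plus strand) 1 E-box, and NDUFS6 (chr5:1801157-1801456, plus strand) neither. The promoters of COX7A2, which also fell with IDE196 at 24 h, and of ATP5MC2, which was not called, are not shown and hold neither.
UQCR11: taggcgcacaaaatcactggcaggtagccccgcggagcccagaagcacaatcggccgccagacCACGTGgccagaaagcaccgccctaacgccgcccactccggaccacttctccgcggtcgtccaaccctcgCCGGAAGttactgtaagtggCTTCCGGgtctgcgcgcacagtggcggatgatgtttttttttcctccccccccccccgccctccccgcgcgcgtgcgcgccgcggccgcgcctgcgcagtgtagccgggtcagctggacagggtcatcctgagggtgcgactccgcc
ATP5MC1: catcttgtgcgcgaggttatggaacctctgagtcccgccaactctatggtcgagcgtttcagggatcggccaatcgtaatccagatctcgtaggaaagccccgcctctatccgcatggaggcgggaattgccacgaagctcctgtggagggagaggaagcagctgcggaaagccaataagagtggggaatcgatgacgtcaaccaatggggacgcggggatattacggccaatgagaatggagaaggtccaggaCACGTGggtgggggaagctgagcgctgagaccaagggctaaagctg
NDUFS6: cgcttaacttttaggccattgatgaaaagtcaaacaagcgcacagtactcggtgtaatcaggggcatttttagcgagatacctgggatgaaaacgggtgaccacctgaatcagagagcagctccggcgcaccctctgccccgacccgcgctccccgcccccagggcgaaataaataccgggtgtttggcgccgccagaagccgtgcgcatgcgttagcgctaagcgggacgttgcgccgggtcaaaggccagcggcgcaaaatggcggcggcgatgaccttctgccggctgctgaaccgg
RefSeq promoters were found for 76 of the 96 members, 1 start per gene. The set of all 27305 promoters can hold several starts for a gene (3 for ATP5MC2) and was not limited to genes expressed here, so the 2 sets are unlike. Searched on both strands, CCGGAAG was in 28.9% of the member promoters and 10.7% of all 27305 promoters, and CACGTG was in 9.21% and 7.43%. A palindromic NRF1 motif was in 5.26% and 1.36%, a YY1 motif in 5.26% and 0.916%, and the estrogen-related receptor letters TCAAGGTCA in 1.32% and 0.359%. Among members lower with IDE196 at 24 h, 16 of 45 promoters held CCGGAAG (35.6%) and 3 held CACGTG (6.67%). Among those tested and not lower, 6 of 24 held CCGGAAG (25%) and 3 held CACGTG (12.5%). These are counts of letters, and no binding was measured.

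In complex I, 21 of 35 subunits tested were lower with IDE196 at 24 h and none was higher (29.4% and 28.7% of all genes), with a median log2 fold change of -0.59. NDUFS6 stood at 50.2, 44.1 and 36.6 CPM with IDE196 and 109.6, 107 and 111 CPM with DMSO. Every drug library was below every DMSO library, a fall to 0.401 of the DMSO level (log2 fold change -1.32, SE 0.11, edgeR adjusted p = 3.15e-08). NDUFS5, a small accessory subunit, was at 82.8, 80.4 and 61.3 CPM with IDE196 and 157, 176 and 183 CPM with DMSO, again without overlap (log2 fold change -1.20, SE 0.15, edgeR adjusted p = 2.22e-06). NDUFB6, in the membrane arm, stood at 22.6, 21.4 and 18.4 CPM with IDE196 and 46.3, 42.3 and 43.9 CPM with DMSO and its groups were also apart (log2 fold change -1.09, SE 0.12, edgeR adjusted p = 4.16e-07). Calls differed among the subunits with redox centres named here, which do not come from a fixed list. NDUFS8, which holds iron-sulfur clusters, was lower (log2 fold change -0.64, edgeR adjusted p = 2.03e-05). NDUFV1, which binds NADH and FMN, was at 156, 160.4 and 148 CPM with IDE196 and 158, 182 and 172 CPM with DMSO and overlapped (log2 fold change -0.14, edgeR adjusted p = 0.129). NDUFS1, which carries iron-sulfur clusters at the tip of the arm, was at 120.4, 124 and 125 CPM with IDE196 and 143, 143 and 130.1 CPM with DMSO, with no overlap but no call (log2 fold change -0.17, edgeR adjusted p = 0.107).

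In complex II, SDHB and SDHD were lower with IDE196 at 24 h, 2 of 4 subunits, where 29.4% of all genes were lower. SDHB, the iron-sulfur subunit, was at 37.3, 32.7 and 28.96 CPM with IDE196 and 51.4, 50.2 and 48.8 CPM with DMSO and the groups did not overlap (log2 fold change -0.60, SE 0.10, edgeR adjusted p = 4.24e-05). SDHD, a membrane anchor, was at 12.02, 14.1 and 10.4 CPM with IDE196 and 17.3, 14.98 and 14.9 CPM with DMSO (log2 fold change -0.37, SE 0.14, edgeR adjusted p = 0.0325), a call lost without DMSO replicate 4, IDE196 replicate 1 or IDE196 replicate 3, with an adjusted p of up to 0.137. The other anchor SDHC was at 119, 116 and 111 CPM with IDE196 and 120.1, 123 and 123 CPM with DMSO (log2 fold change -0.08, edgeR adjusted p = 0.39), a small gap that was not called. SDHA was at 1.31, 0.573 and 1.08 CPM with IDE196 and 1.89, 1.32 and 1.74 CPM with DMSO (log2 fold change -0.73, edgeR adjusted p = 0.0828), few reads for a gene whose copies share them. Of the 4 assembly factors, SDHAF3 was lower (log2 fold change -0.52, edgeR adjusted p = 0.000754) and the other 3 were not called.

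Complex III had 7 of 9 subunits lower (29.4% of all genes) and a median log2 fold change of -0.63. UQCRQ, a small accessory subunit, had the largest fall, with 17.1, 15.2 and 11.8 CPM with IDE196 and 33.4, 37.6 and 39.6 CPM with DMSO (log2 fold change -1.32, SE 0.18, edgeR adjusted p = 5.11e-06). Its exons overlap GDF9, and with the sum of the 2 strand columns in place of the unstranded column the log2 fold change was -1.26. UQCR11, another small subunit (chr19:1597172-1605490, minus strand), was at 5.29, 4.11 and 4.38 CPM with IDE196 and 11.9, 11.2 and 9.06 CPM with DMSO, with every drug library below every DMSO library (log2 fold change -1.22, SE 0.16, edgeR adjusted p = 4.29e-06). UQCRH was at 147, 159.6 and 121 CPM with IDE196 and 204, 236 and 223 CPM with DMSO and also apart (log2 fold change -0.63, SE 0.14, edgeR adjusted p = 0.000642), and its intronless copy UQCRHL, to which near-identical reads may be assigned, gave -0.66 (edgeR adjusted p = 0.0215), a call lost without DMSO replicate 6, IDE196 replicate 1 or IDE196 replicate 3. UQCRFS1, the Rieske iron-sulfur protein, was lower (log2 fold change -0.61), as was UQCRC1, a core protein (-0.28). The other core protein UQCRC2 (-0.04) and UQCRB (0.03) had overlapping libraries and were not called.

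Complex IV was the complex in which every subunit tested, 11 of 11, was lower (29.4% of all genes), with log2 fold changes from -0.96 to -0.34 and a median of -0.66. COX7A2, the widely expressed form of subunit 7A (chr6:75237675-75250323, minus strand), was at 60.2, 62.9 and 44.3 CPM with IDE196 and 107, 105 and 114 CPM with DMSO. No library overlapped (log2 fold change -0.96, SE 0.16, edgeR adjusted p = 4.47e-05). COX7B (chrX:77899438-77907373, plus strand) was at 49.2, 50.4 and 43.7 CPM with IDE196 and 83.1, 88.2 and 84.3 CPM with DMSO, likewise apart (log2 fold change -0.83, SE 0.13, edgeR adjusted p = 3.09e-05). COX8A (-0.84), NDUFA4 (-0.70), COX6A1 (-0.66) and COX6B1 (-0.52) were lower as well, and the COX6B1 call was lost without DMSO replicate 6 or IDE196 replicate 3, with an adjusted p of up to 0.0935. COX4I1, the regulatory subunit 4, had the smallest fall, at 328, 322 and 239 CPM with IDE196 and 362, 372 and 388 CPM with DMSO (log2 fold change -0.34, SE 0.13, edgeR adjusted p = 0.033). Its call was lost without DMSO replicate 5, DMSO replicate 6 or IDE196 replicate 3, the last of which gave the lowest value, with an adjusted p of up to 0.173. COX7A2L, a supercomplex assembly factor related to COX7A2, went the other way, at 149.6, 143 and 144 CPM with IDE196 and 108, 119.8 and 109 CPM with DMSO. Its drug libraries were all above the DMSO libraries (log2 fold change 0.37, SE 0.09, edgeR adjusted p = 0.00112).

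Of the 17 complex V subunits, 11 were lower with IDE196 at 24 h and none was higher (29.4% and 28.7% of all genes), with a median log2 fold change of -0.54. The 3 genes for the c subunit differed. ATP5MC1 (chr17:48892765-48895871, plus strand) was at 36.8, 36.4 and 27.6 CPM with IDE196 and 83.1, 82.1 and 97.4 CPM with DMSO, below DMSO in every library and at 0.384 of its level (log2 fold change -1.38, SE 0.13, edgeR adjusted p = 1.09e-07). ATP5MC3 (chr2:175176258-175184607, minus strand) was at 102, 98.1 and 82.8 CPM with IDE196 and 176, 184 and 179 CPM with DMSO, without overlap (log2 fold change -0.93, SE 0.11, edgeR adjusted p = 1.66e-06). ATP5MC2 (chr12:53632726-53677408, minus strand) was at 273, 268 and 207 CPM with IDE196 and 208, 237 and 235 CPM with DMSO, with overlapping groups and no call (log2 fold change 0.14, SE 0.14, edgeR adjusted p = 0.433). In the catalytic head, ATP5F1B was at 607, 604 and 571 CPM with IDE196 and 958, 984 and 950.2 CPM with DMSO and apart (log2 fold change -0.70, SE 0.08, edgeR adjusted p = 6.77e-07), ATP5F1A, the alpha subunit, was lower by less (-0.23), and ATP5F1C, the gamma subunit of the central stalk, was not called (0.02). ATP5IF1, which holds back ATP hydrolysis by the synthase, was at 37, 34.7 and 31.4 CPM with IDE196 and 48.2, 49.6 and 58.1 CPM with DMSO (log2 fold change -0.60, SE 0.13, edgeR adjusted p = 0.000677), again with no overlap. Outside the complexes, ATP5S (log2 fold change 0.58, SE 0.11, edgeR adjusted p = 0.000254) and NDUFA6-DT (0.90, edgeR adjusted p = 0.0376) were higher.

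**Figure D2:**
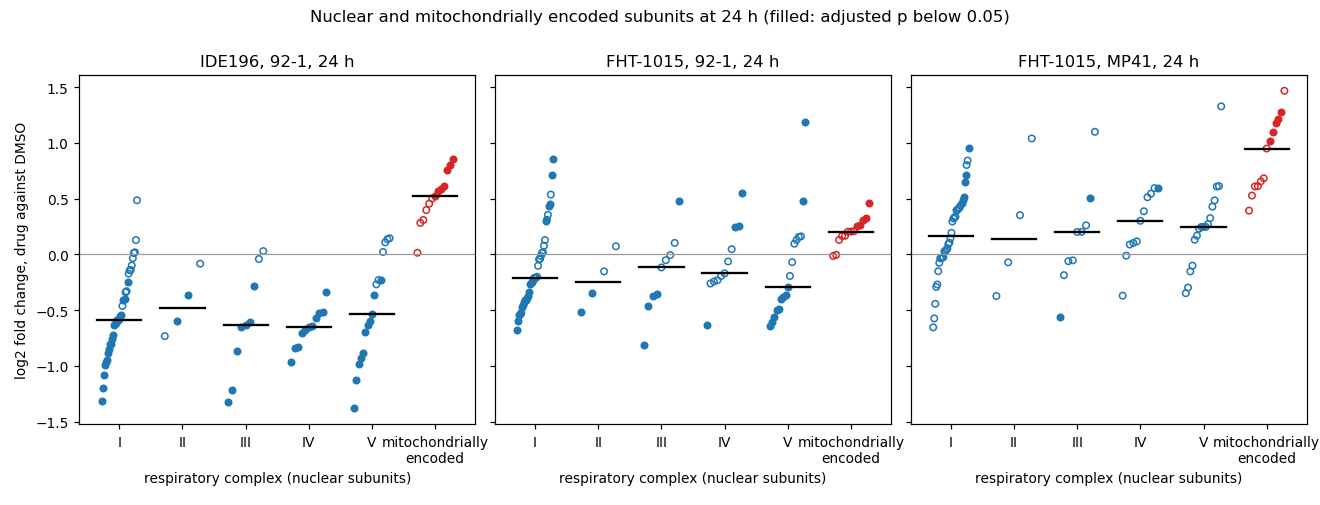
Log2 fold change at 24 h of each nuclear subunit, by complex, and of the 13 mitochondrially encoded subunits, for IDE196 in 92-1 and FHT-1015 in 92-1 and MP41. Each point is 1 gene, filled where edgeR's adjusted p is under 0.05, and the bar is the median. With IDE196 the nuclear medians lie between -0.66 and -0.48, while the mitochondrially encoded genes have a median of 0.52.

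The fall grew between 4 h and 24 h of IDE196. The 24 h effect differed from the 4 h effect in 38 of 84 members (30.7% of all genes). In 36 it was more negative at 24 h and in 2 more positive (17.2% and 13.5% of all genes). For ATP5F1B the difference in log2 fold change was -0.84 (SE 0.11, edgeR adjusted p = 2.19e-05), for NDUFB6 -1.08 (SE 0.16, edgeR adjusted p = 7.93e-05) and for NDUFS6 -0.92 (SE 0.16, edgeR adjusted p = 0.000276).

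With FHT-1015 in 92-1 at 4 h, 15 of 86 members were higher and 1 was lower, beside 12.9% and 16.7% of all genes. In 26 members every FHT-1015 library lay above every DMSO library and in 2 below (21% and 22.4% of all genes). The median log2 fold change was 0.17, against 0.01 over all genes. The count of higher members was 3 without DMSO replicate 3 and 6 without FHT-1015 replicate 3, and the lone lower call was lost in 4 of the 12 fits that left out 1 library (DMSO replicates 1 and 2, FHT-1015 replicates 2 and 3). NDUFB4, in the membrane arm of complex I, was among the higher members at 65.9, 65.9 and 81.8 CPM with FHT-1015 and 57.1, 53.8 and 50.3 CPM with DMSO, without overlap (log2 fold change 0.41, SE 0.10, edgeR adjusted p = 0.00452). SDHAF2 was at 6.13, 5.92 and 7.04 CPM with FHT-1015 and 4.02, 4.56 and 3.75 CPM with DMSO, with all FHT-1015 libraries above DMSO (log2 fold change 0.62, SE 0.17, edgeR adjusted p = 0.013), and its adjusted p was 0.0553 without DMSO replicate 3. UQCR11 was at 17.1, 16.4 and 18.5 CPM with FHT-1015 and 14.98, 13.5 and 11.9 CPM with DMSO, higher in all 3 libraries (log2 fold change 0.36, SE 0.12, edgeR adjusted p = 0.0359). ATP5MC1 was at 159, 158 and 184 CPM with FHT-1015 and 149.9, 134 and 129 CPM with DMSO and higher (log2 fold change 0.28, SE 0.09, edgeR adjusted p = 0.0335), a call lost without DMSO replicate 2, DMSO replicate 3 or FHT-1015 replicate 3, with an adjusted p of up to 0.136. NDUFA2, a complex I accessory subunit, was called higher (0.47, edgeR adjusted p = 0.0396), but not with the sum of the strand columns (0.14, edgeR adjusted p = 0.322), nor in 6 of the 12 fits that left out 1 library, without filtering (edgeR adjusted p = 0.0874) or with GC and length offsets (edgeR adjusted p = 0.0546). NDUFS1 was the lower member, at 139, 127 and 119 CPM with FHT-1015 and 155, 157 and 146 CPM with DMSO (log2 fold change -0.25, SE 0.08, edgeR adjusted p = 0.0317). Besides the 4 fits above, its call was lost when no gene was filtered out (-0.23, edgeR adjusted p = 0.14) and with GC and length offsets (-0.165, edgeR adjusted p = 0.0653).

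At 24 h of FHT-1015 in 92-1, 29 of 86 members were lower (33.7%) and 15 higher (17.4%), where 31.4% of all genes were lower and 29.2% higher. The lower share was near that of all genes and the higher share was under it. In 33 members the FHT-1015 libraries all lay below DMSO and in 15 above (33.7% and 31.8% of all genes), and the median log2 fold change was -0.20, against 0.00. By complex, higher and lower members numbered 5 and 13 of 37 in complex I, 0 and 2 of 4 in complex II, 1 and 4 of 9 in complex III, 3 and 1 of 11 tested in complex IV, and 2 and 9 of 17 in complex V. Leaving out 1 library at a time gave 24 to 35 lower and 10 to 15 higher members. Complexes I, III, IV and V each held members called in both directions.

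In complex I, NDUFB4 was at 94.2, 94.1 and 99.8 CPM with FHT-1015 and 54.9, 54.9 and 49.9 CPM with DMSO, higher in every library (log2 fold change 0.85, SE 0.10, edgeR adjusted p = 1.56e-06). NDUFB6 (-0.60, edgeR adjusted p = 0.000103), NDUFS6 (-0.53, edgeR adjusted p = 0.000836) and NDUFC2, a membrane arm subunit (-0.68, edgeR adjusted p = 0.00444), were lower. NDUFS1 was at 109.9, 104 and 109.8 CPM with FHT-1015 and 158, 137 and 136 CPM with DMSO, lower as at 4 h (log2 fold change -0.41, SE 0.08, edgeR adjusted p = 0.000504). In complex II, SDHD (log2 fold change -0.51, SE 0.10, edgeR adjusted p = 0.000299) and SDHB (-0.35, edgeR adjusted p = 0.00521) were lower, while SDHC (0.07) and SDHA (-0.15) were not called.

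In complex III, UQCR11 was at 7.23, 9.19 and 8.56 CPM with FHT-1015 and 13.9, 15.7 and 14.4 CPM with DMSO, with every FHT-1015 library below DMSO and the largest fall of any member in this comparison (log2 fold change -0.82, SE 0.13, edgeR adjusted p = 5.02e-05). UQCRB, which was far from the threshold with IDE196, was at 461, 415 and 414 CPM with FHT-1015 and 337, 282 and 306 CPM with DMSO and higher (log2 fold change 0.48, SE 0.10, edgeR adjusted p = 0.000445). In complex IV, COX7A2 was at 311, 267 and 287 CPM with FHT-1015 and 221, 185 and 185 CPM with DMSO, higher and apart (log2 fold change 0.55, SE 0.09, edgeR adjusted p = 5.54e-05). COX7B was at 93.3, 107 and 96.96 CPM with FHT-1015 and 168, 151 and 143 CPM with DMSO, lower and apart (log2 fold change -0.64, SE 0.09, edgeR adjusted p = 2.01e-05). NDUFA4 was called higher (0.26, edgeR adjusted p = 0.0252) with overlapping libraries, and that call was lost without DMSO replicate 2 or 3 or FHT-1015 replicate 1 or 2, and when no gene was filtered out (edgeR adjusted p = 0.0541). COX4I1 (-0.06), COX6A1 (-0.17), COX6B1 (-0.23) and COX8A (-0.20) were not called. COX7A2L was higher here as with IDE196, at 176, 163 and 164 CPM with FHT-1015 and 126, 114 and 116 CPM with DMSO (log2 fold change 0.50, SE 0.07, edgeR adjusted p = 1.8e-05).

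In complex V, the c subunit genes again parted. ATP5MC1 was at 98.2, 97.5 and 82.4 CPM with FHT-1015 and 140.1, 141 and 129 CPM with DMSO and ATP5MC3 at 179.5, 178 and 161 CPM with FHT-1015 and 299.9, 251 and 259 CPM with DMSO. Both had all FHT-1015 libraries below DMSO, with log2 fold changes of -0.56 (edgeR adjusted p = 9.38e-05) and -0.64 (edgeR adjusted p = 9.47e-06). ATP5MC2 was at 409.9, 385 and 378 CPM with FHT-1015 and 300.1, 263 and 279.8 CPM with DMSO, with all above (log2 fold change 0.48, SE 0.10, edgeR adjusted p = 0.000539). ATP5IF1 was not called (-0.20). The call of ATP5ME as higher (1.19, edgeR adjusted p = 0.0101) rests on levels of 1.43, 1.43 and 1.75 CPM with FHT-1015 and 0.459, 0.864 and 0.739 CPM with DMSO, and 61.6% of its exon bases are shared with MYL5.

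**Figure D3:**
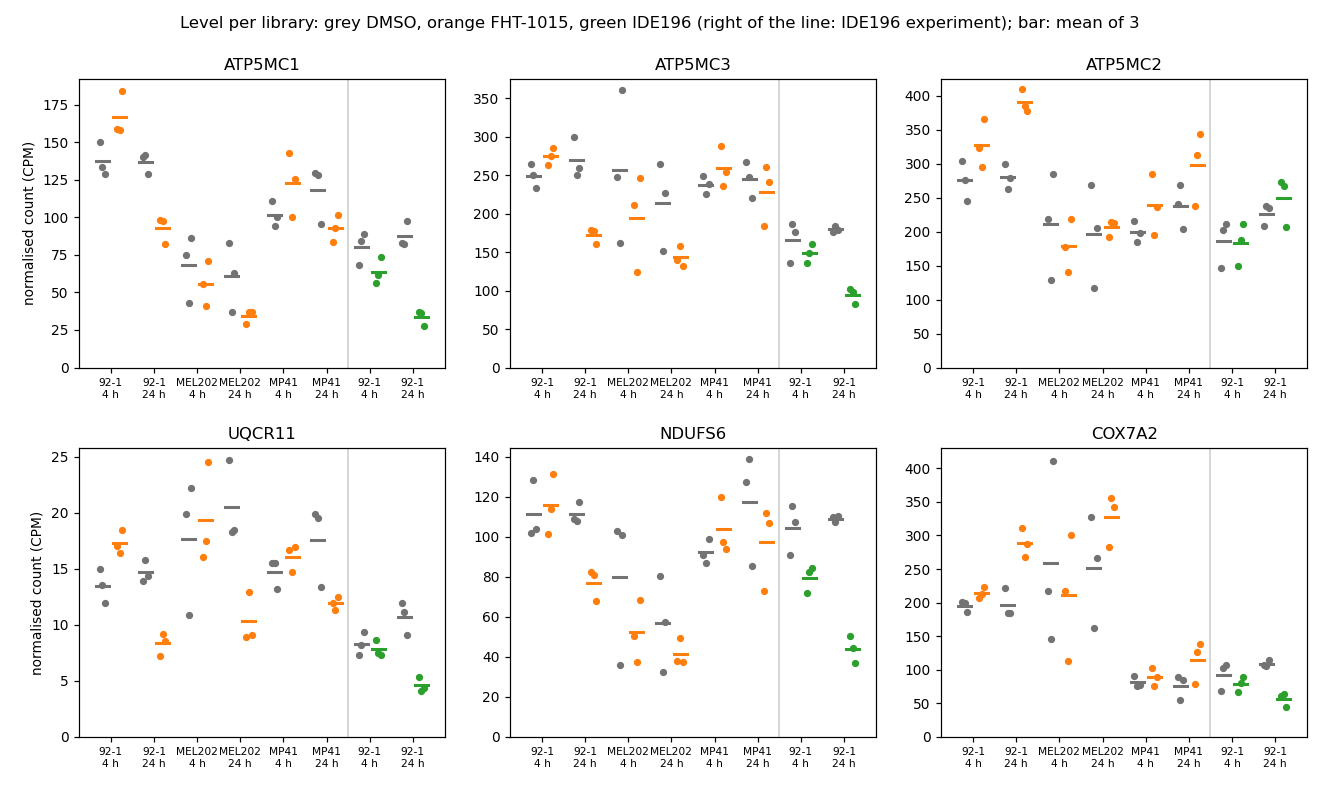
CPM per library of ATP5MC1, ATP5MC3, ATP5MC2, UQCR11, NDUFS6 and COX7A2 in DMSO (grey), FHT-1015 (orange) and IDE196 (green), by line and time, with a bar at the mean of 3. With IDE196 at 24 h all but ATP5MC2 lie below their DMSO samples, and with FHT-1015 at 24 h in 92-1 ATP5MC2 and COX7A2 lie above.

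The FHT-1015 effect in 92-1 differed between 24 h and 4 h for 37 of 86 members (45.5% of all genes), 31 more negative and 6 more positive at 24 h (24.3% and 21.1% of all genes). The members ATP5MC1, COX7B, NDUFB2, NDUFV3 and UQCR11 were called higher at 4 h and lower at 24 h, 5.81% of 86 beside 3.04% of all genes. Higher calls at 4 h numbered 15 with all libraries, 3 without DMSO replicate 3 and 6 without FHT-1015 replicate 3, and the joint count was not repeated in those fits. NDUFB2 shares 35.9% of its exon bases with other genes. COX7B was at 150.3, 174 and 178 CPM with FHT-1015 and 146, 140.1 and 132 CPM with DMSO at 4 h, without overlap (log2 fold change 0.26, SE 0.09, edgeR adjusted p = 0.0396), and that call was lost in 7 of the 12 fits that left out 1 library, with an adjusted p of up to 0.146. It was also lost when no gene was filtered out (edgeR adjusted p = 0.0522) and with GC and length offsets (log2 fold change 0.19, edgeR adjusted p = 0.103). NDUFA6-DT and NDUFB4 were among the 3 members called higher at both times (5.8% of all genes), and NDUFS1 was lower at both (9.44% of all genes). The difference was -0.90 (SE 0.13, edgeR adjusted p = 4.29e-05) for COX7B, -1.18 (SE 0.18, edgeR adjusted p = 6.81e-05) for UQCR11 and -0.78 (SE 0.12, edgeR adjusted p = 8.52e-05) for ATP5MC3. No member was called between the 4 h and 24 h DMSO samples of this experiment (0.344% of all genes), and 2 members had an unadjusted p under 0.05, beside 1382 of all 15685 genes tested.

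In MEL202, no member was called at 4 h by edgeR (0.157% of all genes higher, 0.522% lower), with a median log2 fold change of -0.23 against -0.02 over all genes. At an unadjusted p under 0.05 was 1 member, beside 1365 of all 15913 genes tested. No member had all FHT-1015 libraries above DMSO and 1 had all below (4.29% and 4.86% of all genes). Without FHT-1015 replicate 2 at 4 h none was called either, and the median was -0.02. At 24 h 2 of 85 members were lower and none higher, where 10.1% of all genes were lower and 8.69% higher. In 6 members the FHT-1015 libraries were all above DMSO and in 9 all below (26.9% and 25.1% of all genes). Without the same 4 h library 3 were lower and 1 higher. The median log2 fold change at 24 h was -0.22, and -0.22 without that library, but -0.125 with GC and length offsets and -0.11 with a replicate block. UQCR11 was at 8.93, 12.9 and 9.07 CPM with FHT-1015 and 24.7, 18.3 and 18.4 CPM with DMSO, with all FHT-1015 libraries below DMSO (log2 fold change -0.99, SE 0.29, edgeR adjusted p = 0.0274). Its call was lost without DMSO replicate 1, DMSO replicate 3, FHT-1015 replicate 1 or FHT-1015 replicate 3 at 24 h, with an adjusted p of up to 0.116. Without the 4 h library it was -0.99 (edgeR adjusted p = 0.0207). NDUFA9, a complex I accessory subunit, was at 3.88, 3.45 and 2.39 CPM with FHT-1015 and 7.14, 7.07 and 5.84 CPM with DMSO (log2 fold change -1.04, SE 0.34, edgeR adjusted p = 0.0455), a call lost in 8 of the 12 fits that left out 1 library, with an adjusted p of up to 0.182. Without the 4 h library it was -1.04 (edgeR adjusted p = 0.0313), and with a replicate block the call was lost (edgeR adjusted p = 0.0517). Members lower at 24 h numbered 0 without DMSO replicate 1, DMSO replicate 3, FHT-1015 replicate 1 or FHT-1015 replicate 3 at 24 h. They numbered 1 without FHT-1015 replicate 2 at 24 h, or replicate 1 or 3 at 4 h. The member read share at 24 h ranged from 0.616% to 1.035% with DMSO and from 0.761% to 0.852% with FHT-1015, so the groups overlapped. No member's effect differed between 24 h and 4 h (6.89% of all genes, 3% more positive and 3.9% more negative), with 2 members and 3265 of all 15913 genes at an unadjusted p under 0.05. None was called between the DMSO times either, where 0% of all genes were, and both counts were 0 without FHT-1015 replicate 2 at 4 h.

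In MP41, no member was called at 4 h by edgeR (0.0708% of all genes higher, 0.154% lower), and none by DESeq2 there or in MEL202. In MP41 1 member was at an unadjusted p under 0.05, beside 899 of all 15543 genes tested, and the median was 0.14 against 0.01. Without DMSO replicates 1 and 2 at 24 h none was called at 4 h either, and the median was also 0.14. In 12 members the FHT-1015 libraries were all above DMSO and in 1 all below (9.61% and 11.2% of all genes). At 24 h 9 of 85 members were higher and 1 lower, under the 17.4% and 18.7% of all genes, with a median log2 fold change of 0.23 against 0.07. In 11 members the FHT-1015 libraries were all above DMSO and in 3 all below (21.8% and 20.7% of all genes). Leaving out DMSO replicates 1 and 2 of that time gave 6 higher members, 0 lower and a median of 0.21. Among the higher members were NDUFB4, NDUFB5, NDUFB11, NDUFC1 and NDUFS4 of complex I, UQCRC2 of complex III, NDUFA4 of complex IV, and ATP5S. NDUFB5, in the membrane arm, was at 70.2, 91.4 and 86.6 CPM with FHT-1015 and 41.7, 32.9 and 53.2 CPM with DMSO and apart (log2 fold change 0.96, SE 0.17, edgeR adjusted p = 0.000836), a log2 fold change of 0.62 against the 1 remaining DMSO sample (edgeR adjusted p = 0.00971) and 0.35 once GC content and length entered as offsets (edgeR adjusted p = 0.0937). NDUFB4 was at 92.8, 136 and 159 CPM with FHT-1015 and 83.7, 70.4 and 81.8 CPM with DMSO (log2 fold change 0.72, SE 0.19, edgeR adjusted p = 0.00927), which became 0.65 with an adjusted p of 0.0561 without the 2 DMSO libraries, 0.54 with an adjusted p of 0.0558 without FHT-1015 replicate 3, and 0.66 with an adjusted p of 0.0683 from only the 6 samples compared. NDUFC1 was at 49.8, 76.7 and 64.2 CPM with FHT-1015 and 41.1, 42.1 and 38.2 CPM with DMSO (log2 fold change 0.65, SE 0.16, edgeR adjusted p = 0.00585), and against the 1 remaining DMSO sample it was 0.72 (edgeR adjusted p = 0.0136). With only the 6 samples compared the call was lost (0.59, edgeR adjusted p = 0.0826).

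UQCR11 was the lower member in MP41, at 11.95, 11.3 and 12.5 CPM with FHT-1015 and 19.9, 19.5 and 13.4 CPM with DMSO (log2 fold change -0.56, SE 0.18, edgeR adjusted p = 0.0255). Against DMSO replicate 3 alone it was at -0.18 (edgeR adjusted p = 0.503). The 2 DMSO samples left out there hold the highest values, so a smaller difference follows from leaving them out. The call was also lost in 4 of the 12 fits that left out 1 library, those without DMSO replicate 1 or any 1 of the FHT-1015 libraries at 24 h, with an adjusted p of up to 0.102. It was lost as well when no gene was filtered out (-0.57, edgeR adjusted p = 0.0751) and with only the 6 samples compared (-0.62, edgeR adjusted p = 0.097). NDUFA4 was at 163, 244 and 267 CPM with FHT-1015 and 169.8, 118 and 157 CPM with DMSO, overlapping and called higher (log2 fold change 0.60, SE 0.20, edgeR adjusted p = 0.0306), and turned to -0.035 once GC content and length entered as offsets. Its call was lost without DMSO replicates 1 and 2 at 24 h (0.50, edgeR adjusted p = 0.13), with only the 6 samples compared (edgeR adjusted p = 0.128) and in 5 of the 12 fits that left out 1 library, those without DMSO replicate 2, FHT-1015 replicate 2 or FHT-1015 replicate 3 at 24 h, or FHT-1015 replicate 1 or 3 at 4 h, with an adjusted p of up to 0.135. Across the 84 members with a GC value, the MP41 24 h log2 fold changes had a Spearman correlation of -0.57 with GC content, given as a description over genes measured in the same libraries. The part of GC content in the MP41 calls was not tested. SDHD was at 34.6, 45.2 and 49.5 CPM with FHT-1015 and 8.33, 8.402 and 45.9 CPM with DMSO (log2 fold change 1.04, edgeR adjusted p = 0.112), and the low DMSO values are those of replicates 1 and 2. ATP5MG, a membrane subunit of the ATP synthase, was at 8.18, 14.8 and 15.1 CPM with FHT-1015 and 1.15, 0.743 and 13.02 CPM with DMSO (log2 fold change 1.33, edgeR adjusted p = 0.149). UQCRB was at 173, 299.6 and 364 CPM with FHT-1015 and 137, 15.3 and 239 CPM with DMSO (log2 fold change 1.10, edgeR adjusted p = 0.163).

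The 9 higher members in MP41 became 18 without DMSO replicate 3 at 24 h, 15 without FHT-1015 replicate 1, 5 without FHT-1015 replicate 2 and 4 without FHT-1015 replicate 3, all at 24 h, and 5 without FHT-1015 replicate 1 or replicate 3 at 4 h. Lower members numbered 7 without DMSO replicate 3 at 24 h, 2 without FHT-1015 replicate 3, and 0 without DMSO replicate 1, FHT-1015 replicate 1 or FHT-1015 replicate 2. No member was called between the DMSO samples at 4 h and 24 h (2.59% of all genes), and 22 were without DMSO replicate 3 at 24 h. With all libraries, 6 members and 4631 of all 15543 genes had an unadjusted p under 0.05. NDUFB5 was the 1 member whose effect differed between 24 h and 4 h in MP41 (18.6% of all genes, 7.73% more positive and 10.9% more negative), by 0.81 (SE 0.24, edgeR adjusted p = 0.0341), which was 0.48 with an adjusted p of 0.107 without DMSO replicates 1 and 2, where 1 other member was called. With GC and length offsets the difference was 0.15 (edgeR adjusted p = 0.671), and the call was lost in 9 of the 12 fits that left out 1 library, with an adjusted p of up to 0.0915.

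UQCR11 was the 1 member of 84 called lower with FHT-1015 in all 3 lines at 24 h, 1.19% beside 7.65% of the 13677 genes tested in all 3, and both its MEL202 and its MP41 call were lost in settings given above (4 of the 12 fits that left out 1 library in each line). No member was higher in all 3, where 5.04% of genes were. A joint fit of the 36 samples found by edgeR no member whose FHT-1015 effect differed among lines at 4 h (1.38% of all genes differing, 3 members and 1783 of all 18395 genes at an unadjusted p under 0.05, and 1 member called by DESeq2) and 2 of 88 at 24 h (12% of all genes). One was NDUFS1, at -0.41 in 92-1, 0.10 in MEL202 and 0.41 in MP41 (F = 7.51, edgeR adjusted p = 0.0245), and not called without 92-1 DMSO replicate 1 or 92-1 FHT-1015 replicate 2 at 24 h, with an adjusted p of up to 0.0931. Without the 3 libraries of low member values its adjusted p was 0.039, and without the low-count filter 0.134. The other was NDUFA7 (edgeR adjusted p = 0.0195), a complex I accessory subunit with 399 reads over all 48 samples, which entered the joint fit with few reads and passed the filter of 1 single experiment, 92-1 with FHT-1015. At 24 h it was at 0.478, 1.27 and 1.34 CPM with FHT-1015 and 0.827, 1.17 and 0.493 CPM with DMSO in 92-1. In MEL202 it was at 0.0971, 0 and 0.0955 CPM with FHT-1015 and 0.351, 0.351 and 0.123 CPM with DMSO, and in MP41 at 0.179, 0.379 and 0.662 CPM with FHT-1015 and 0.201, 0.0572 and 0.0434 CPM with DMSO, levels too low to read a difference from. The 24 h count was 7 without MP41 DMSO replicate 3, and 1 without 92-1 DMSO replicate 1, 92-1 FHT-1015 replicate 2, MEL202 DMSO replicate 1, MEL202 FHT-1015 replicate 2 or MP41 FHT-1015 replicate 3.

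In 92-1 the effects of the 2 drugs were compared, each against its own DMSO samples, though their doses are not given. Each drug was used in its own experiment, so a difference between drugs cannot be told apart from one between experiments. Members took a mean of 1.06% of reads in the 24 h DMSO samples of the FHT-1015 experiment and 0.771% in those of the IDE196 experiment. At 24 h 23 of 84 members were lower with both drugs, 27.4% beside 20.1% of the 14700 genes tested in both, and 3 were higher with both (COX7A2L, ATP5S and NDUFA6-DT, 3.57% beside 15.7%). A further 5 members, COX7A2, COX7C, NDUFA4, NDUFB4 and NDUFB11, were lower with IDE196 and higher with FHT-1015 (5.95% beside 2.46%), and none the reverse (4.63% of genes). The difference between the drug effects was itself called for 31 of 86 members at 24 h (33% of all genes), 30 of them more positive with FHT-1015 and 1 more negative (15.9% and 17.1% of all genes). For COX7A2 the difference was 1.51 (SE 0.19, edgeR adjusted p = 6e-07) and for NDUFB4 1.40 (SE 0.19, edgeR adjusted p = 1.59e-06). Among the c subunit genes, the drugs differed for ATP5MC1, by 0.82 (SE 0.17, edgeR adjusted p = 0.000509), and the test did not call ATP5MC2, 0.34 (SE 0.19, edgeR adjusted p = 0.182), or ATP5MC3, 0.29 (SE 0.15, edgeR adjusted p = 0.148).

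At 4 h the drug effects differed for 9 members (24.6% of all genes), 8 more positive with FHT-1015 and 1 more negative (10.7% and 14% of all genes). The difference was 1.43 (SE 0.27, edgeR adjusted p = 0.000187) for SDHAF2, 0.66 (SE 0.17, edgeR adjusted p = 0.00532) for NDUFB2, a membrane arm subunit of complex I, 0.66 (SE 0.18, edgeR adjusted p = 0.00695) for NDUFB10, another, and 0.61 (SE 0.17, edgeR adjusted p = 0.0088) for ATP5MC1. With the sum of the strand columns NDUFB2 gave 0.25 (edgeR adjusted p = 0.309). The 4 h count was 24 without IDE196 DMSO replicate 4, 15 without FHT-1015 replicate 1, 14 without IDE196 replicate 3, and 5 without IDE196 DMSO replicate 5, FHT-1015 DMSO replicate 3 or IDE196 replicate 1.

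The genes around the members moved in part with them. Of the 13 subunits encoded in mitochondrial DNA, 7 were higher and none lower with IDE196 at 24 h (28.7% of all genes higher), with a median log2 fold change of 0.52. MT-CYB, cytochrome b of complex III, was at 4893, 5719 and 5429 CPM with IDE196 and 3341, 3074 and 2452 CPM with DMSO, higher in every library (log2 fold change 0.86, SE 0.20, edgeR adjusted p = 0.00142). With FHT-1015 at 24 h 5 were higher and none lower in 92-1 (median 0.20, 29.2% of all genes higher), and 5 higher and none lower in MP41 (median 0.95, 17.4% of all genes higher), where the libraries of MT-CYB overlapped. The MP41 read share of these genes at 24 h was 4.58%, 4.27% and 2.9% with FHT-1015 and 2.91%, 1.12% and 2.42% with DMSO, so those groups overlapped too, and DMSO replicate 2, 1 of the libraries with low member values, was the lowest. In MEL202 at 24 h none was called and the median was 0.05 (8.69% of all genes higher). Reads counted to these 13 genes made up 5.32% to 6.08% of the IDE196 24 h samples and 3.21% to 4.46% of their DMSO samples. Members took 0.524%, 0.604% and 0.61% with IDE196, listed from the lowest, and 0.743% to 0.801% with DMSO, and the ranges stayed apart when mitochondrially encoded reads were left out of the total (0.554% to 0.644% against 0.777% to 0.828%). In 92-1 with FHT-1015 at 24 h, the member share of 1.02% to 1.08% overlapped that of DMSO, 1.04% to 1.09%.

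**Figure D4:**
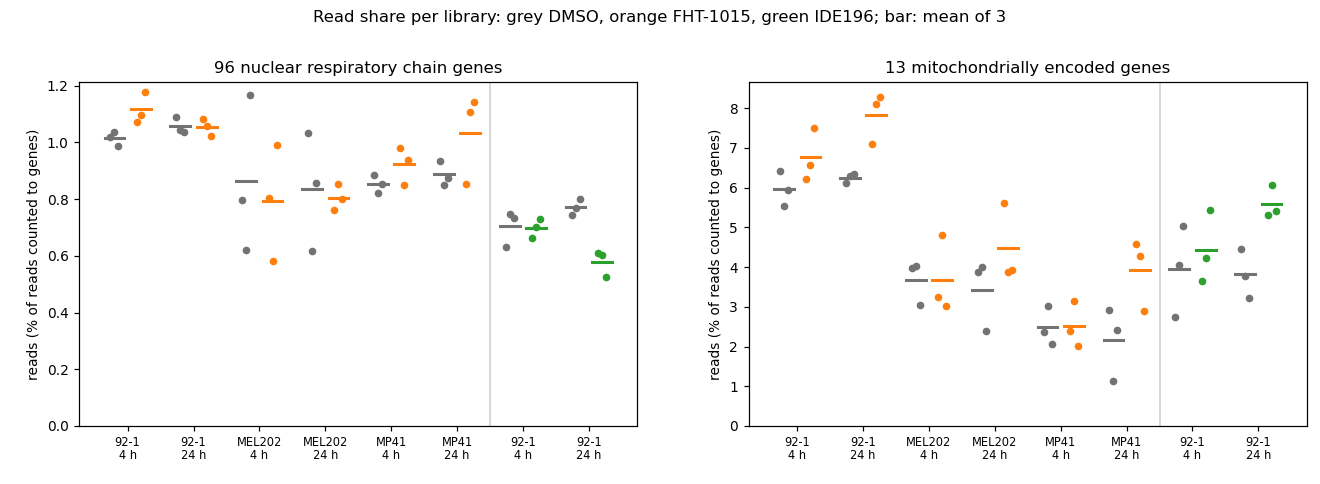
Share of reads per library counted to the nuclear members and to the 13 mitochondrially encoded genes, in DMSO (grey), FHT-1015 (orange) and IDE196 (green), with a bar at the mean of 3. With IDE196 at 24 h the members' share is 0.524% to 0.61% against 0.743% to 0.801% with DMSO, and the mitochondrially encoded share is higher than with DMSO.

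Cytochrome c, encoded by CYCS, carries electrons from complex III to complex IV. With IDE196 at 24 h it was at 152, 153 and 131 CPM with IDE196 and 464, 446 and 410.3 CPM with DMSO, a fall in every library (log2 fold change -1.60, SE 0.10, edgeR adjusted p = 4.59e-10), and CYC1, cytochrome c1 of complex III, was lower too (log2 fold change -0.75). CYCS was also lower with FHT-1015 at 24 h in 92-1 (-1.11) and MEL202 (-1.53), and in MP41 it was at -0.50 (edgeR adjusted p = 0.0904). The lists that follow can be read against all genes tested in 92-1, of which 29.4% were called lower and 28.7% higher with IDE196 at 24 h, and 31.4% and 29.2% with FHT-1015. Among 43 assembly factors tested, 28 were lower and 4 higher with IDE196 at 24 h (median -0.53), and 18 lower and 6 higher with FHT-1015 in 92-1 (median -0.21). Of 14 tricarboxylic acid cycle enzymes, 10 were lower and 1 higher with IDE196 and 9 and 1 with FHT-1015. Of 17 glycolytic enzymes, 12 were lower and 3 higher with IDE196 and 14 and 1 with FHT-1015, all in 92-1 at 24 h.

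Among 14 regulators of mitochondrial biogenesis tested, 9 were lower and 1 higher with IDE196 at 24 h (29.4% and 28.7% of all genes), and 10 and 1 with FHT-1015 in 92-1 (31.4% and 29.2%). TFAM, which packages and transcribes mitochondrial DNA, was at 75.6, 81.7 and 79.3 CPM with IDE196 and 124, 130 and 113 CPM with DMSO at 24 h (log2 fold change -0.64, SE 0.08, edgeR adjusted p = 2.21e-06), and was lower with FHT-1015 in 92-1 at 24 h (log2 fold change -0.91). At 4 h of IDE196, PPARGC1B, PPRC1, TFAM, TFB2M and TWNK were lower and PPARGC1A was the 1 higher (9.3% and 6.89% of all genes). PPARGC1A was at 7.32, 10.2 and 11.3 CPM with IDE196 and 3.61, 1.84 and 2.98 CPM with DMSO with no overlap (log2 fold change 1.78, SE 0.23, edgeR adjusted p = 3.83e-05). At 24 h it was not called (0.12). With FHT-1015 it fell in 92-1 at 4 h, at 1.34, 1.11 and 0.88 CPM with FHT-1015 and 3.47, 3.498 and 3.99 CPM with DMSO (log2 fold change -1.70, SE 0.25, edgeR adjusted p = 8.49e-05). It was also lower at 24 h in 92-1 (-0.89) and in MP41 (-2.42), and was not called in MEL202 at 24 h (-0.97, edgeR adjusted p = 0.0881) or at 4 h in MEL202 (-0.52) and MP41 (-0.22). A relation between these regulators and the members was not tested.

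Counting limits bear on some members. The library kit does not mark strand, and 52 members share exon bases with another gene, 3 of them over 50% of their bases. For 46 members the annotation holds pseudogene rows that can take or share their reads. Those rows held 87.0% of the reads of NDUFV2 and its copies and 19.0% of those of COX6A1. The values are shares of each library and 0 reads fell on spike-in rows, so a change in cell number or in total RNA per cell cannot be seen in them. Across the 83 members with a length, the IDE196 24 h log2 fold changes had a Spearman correlation of 0.31 with exon length and -0.07 with GC content, a description over genes of the same libraries.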

How the data were processed

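The files hold read counts per gene, whole numbers in the layout of STAR's gene counts, which the authors deposited 1 per sample. The build is hg38 and limma is named, per the submitters' processing notes; aligner version and annotation release are not given in the sources used here. Per the labels' protocols, RNA from frozen pellets was poly-T selected and prepared with an NEBNext Ultra kit. The unstranded column was used, since reads of the 2 strand columns were equal (49.7% to 50.1% on the first), and 9.83% to 12.5% of reads were ambiguous between genes. Identifiers were matched without version to GENCODE 29 (GRCh38) for symbols and coordinates (58597 of 58870 rows matched, 47456 with the same version). Rows without a gene were left out.

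Each experiment (12 samples, 4 groups) was fitted on all genes with edgeR 4.0.16 in R 4.3.3 (filterByExpr, TMM, quasi-likelihood F-test, Benjamini-Hochberg adjustment, threshold 0.05). Joint fits used 36 samples for lines and 24 for drugs. The SE is the absolute log2 fold change divided by the root of F. The steps were tested on simulated data. No share of a single sample is given an interval; counting error is part of the fitted spread. Replicate numbers are shared between FHT-1015 and DMSO groups, but were not taken as pairs: 7 of 18 pairs correlated above 0.1.

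Alternatives were DESeq2 1.42.0 and its size factors, no filter, the 6 samples of a comparison alone, offsets for GC content and length, a replicate block and leaving out each library. The strand-column sum, limma-voom (limma 3.58.1) with quality weights and leaving out the 3 libraries with low member values were added after seeing the data.

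The members and lists were chosen with earlier results of these data known. Genes named are the paralogue sets, SDHA to SDHD, ATP5IF1, members called alike in all 3 lines, members passing no filter, the 3 highest and lowest per length, PPARGC1A, CYCS, CYC1 and TFAM. Each drug comparison names the 3 largest rises and falls among members called with a mean of at least 5 CPM. Each difference names the 3 smallest p among members called with that mean in every experiment compared. Other genes named were chosen after their values were seen. One member is counted but not reported here by name.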

Additional observations from a re-analysis of the deposited data

Results flagged for a closer look

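For 13 results, a member's effect differed between times, lines or drugs by a test of the difference itself. With FHT-1015 in 92-1, the effect at 24 h was below that at 4 h for COX7B, by -0.90 (SE 0.13, edgeR adjusted p = 4.29e-05), for UQCR11, by -1.18 (SE 0.18, edgeR adjusted p = 6.81e-05), and for ATP5MC3, by -0.78 (SE 0.12, edgeR adjusted p = 8.52e-05). In MP41 the NDUFB5 effect was above it, by 0.81 (SE 0.24, edgeR adjusted p = 0.0341), a call lost in 9 of the 12 fits that left out 1 library, with GC and length offsets (0.15, edgeR adjusted p = 0.671) and without DMSO replicates 1 and 2 at 24 h (0.48, edgeR adjusted p = 0.107). With IDE196 in 92-1, the 24 h effect was below the 4 h effect for ATP5F1B, by -0.84 (SE 0.11, edgeR adjusted p = 2.19e-05), for NDUFB6, by -1.08 (SE 0.16, edgeR adjusted p = 7.93e-05), and for NDUFS6, by -0.92 (SE 0.16, edgeR adjusted p = 0.000276).

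The FHT-1015 effect on NDUFS1 at 24 h differed among the 3 lines (edgeR adjusted p = 0.0245), a call lost in 2 of the 36 fits that left out 1 library and when no gene was filtered out (edgeR adjusted p = 0.134). The effects of FHT-1015 and IDE196 in 92-1 at 4 h differed for NDUFB2, by 0.66 (SE 0.17, edgeR adjusted p = 0.00532), which with the strand-column sum was 0.25 (edgeR adjusted p = 0.309), NDUFB10, by 0.66 (SE 0.18, edgeR adjusted p = 0.00695), and ATP5MC1, by 0.61 (SE 0.17, edgeR adjusted p = 0.0088). At 24 h they differed for COX7A2, by 1.51 (SE 0.19, edgeR adjusted p = 6e-07), and NDUFB4, by 1.40 (SE 0.19, edgeR adjusted p = 1.59e-06). The causes were not tested.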

How the results depend on the processing

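Of 438 values of named members under other settings, 415 kept their direction and side of the threshold, 22 lost the call and 1 reversed (NDUFA4 in MP41 at 24 h, -0.035 with GC and length offsets). Of 804 fits leaving out 1 library, 732 kept both, 72 lost the call and none reversed. Counts in the IDE196 24 h comparison (54 lower, 3 higher) stayed within 1.5 times under every other setting. The causes were not tested.

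Counts that moved further, by setting: without the filter, 0 lower in 92-1 at 4 h of FHT-1015, 5 lower in MEL202 at 24 h, 15 higher and 0 lower in MP41 at 24 h, 5 differing between times and 4 between DMSO times in MP41, and 8 among lines at 24 h. With DESeq2, 2 lower in 92-1 at 4 h, 2 higher in MEL202 at 24 h, 2 differing between times in MP41 and 1 among lines at 4 h. With GC and length offsets, 5 lower and 2 higher in MEL202 at 24 h, 2 differing between its times, 4 lower in MP41 at 24 h, 4 differing between its times, 5 lower with IDE196 at 4 h and 7 among lines at 24 h. With only the 6 samples compared, 10 lower and 2 higher in MEL202, 1 higher and 0 lower in MP41, and 1 lower with IDE196 at 4 h. With the strand-column sum, 1 was higher in MEL202 at 24 h. With limma-voom, 3 lower in 92-1 at 4 h, 17 lower and 3 higher in MEL202 at 24 h, 2 differing between its times, 26 higher and 8 lower in MP41 at 24 h, 18 differing between its times, 36 between its DMSO times, 5 lower with IDE196 at 4 h, 24 among lines at 24 h and 19 between drugs at 4 h. Without the 3 libraries of low member values, 1 was higher in MEL202 and 0 lower in MP41 at 24 h.

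With a replicate block, 18 members were higher and 1 lower in 92-1 at 4 h, 15 and 32 at 24 h, 0 and 1 in MEL202 at 24 h, and 9 and 1 in MP41 at 24 h. Same-numbered samples correlated best with their own number in 12 of 18 cases, among them all 6 in MP41 and all 3 in 92-1 at 4 h, a hint from the data and not from the design. Since 7 of 18 pairs were above 0.1, the numbers were not taken as pairs, and whether they mark a shared batch was not tested. No paired analysis was possible for IDE196 because its samples share no replicate number with their DMSO samples.

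Leaving out 1 library at a time gave these ranges: with FHT-1015 in 92-1, 3 to 16 higher and 0 to 1 lower at 4 h, 10 to 15 higher and 24 to 35 lower at 24 h, and 31 to 41 differing between times. In MEL202 at 24 h they were 0 to 1 higher and 0 to 3 lower. In MP41 they were 4 to 18 higher and 0 to 7 lower at 24 h, 0 to 10 differing between times and 0 to 22 between DMSO times. With IDE196 they were 0 to 9 lower at 4 h, 2 to 3 higher and 48 to 55 lower at 24 h, and 29 to 41 differing between times. Among lines they were 0 to 1 at 4 h and 1 to 7 at 24 h, and between drugs 5 to 24 at 4 h and 21 to 36 at 24 h.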

Other observations

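In MEL202 with FHT-1015 at 4 h, replicate 2, members far under their 12-sample median included SDHD (2.89 against 17.6 CPM) and NDUFB3, a membrane arm subunit of complex I (5.64 against 36.4 CPM), besides UQCRB. In MP41 with DMSO at 24 h, replicate 2, NDUFA5, a complex I accessory subunit, was at 10.1 CPM against a median of 77.0 CPM. Among members with a median of at least 5 CPM, 14 values in 10 members lay more than 4-fold below their median.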
